A study of Rattus norvegicus with 12 samples.

Results

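The liver takes organic anions, bile acids, steroid conjugates, prostaglandins and carnitine out of the blood through membrane carriers of the Slco (OATP) and Slc22 (OAT and OCTN among them) families. The 7 rat transporters described here are Slco1a1, Slco1a4, Slco1b2, Slco2a1, Slco2b1, Slc22a5 and Slc22a7, which were picked by name out of the 40154 genes in the count table. For 6 of them the name in the table was the same. Slco1a4 is listed there as Slco1a2 and was matched by its Entrez number, 170698. All 7 passed the filter on low counts, as did 15916 genes in total.

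Carriers of the Slco family exchange large amphipathic anions across the membrane without using ATP, and in hepatocytes they sit mainly on the sinusoidal side, facing the blood. Slc22 carriers move smaller organic anions or cations, and some depend on sodium. Their transcripts are known to respond to nuclear receptors that sense bile acids, lipids and foreign compounds, such as CAR, PXR, FXR and PPARα, and to the liver-enriched factor HNF4α.

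RNA was sequenced from the livers of Sprague Dawley rats in 4 groups of 3 libraries. Control rats ate a normal diet, Control+SAMC rats ate that diet and received S-allylmercaptocysteine (SAMC), an organosulfur compound of aged garlic, HFD rats ate a high fat diet, and HFD+SAMC rats received the fat-rich diet and SAMC. Genotype, sex, age, dose and duration were not analysed here. The labels do not say that the libraries come from separate animals, so the p-values measure only the spread between these libraries, which may be technical.

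Library totals ran from 45680738 to 61937544 counts, and albumin, the defining hepatocyte transcript, held 7.32% to 21.8% of the counts. Several libraries stood apart. In 4 of them, Control replicate 2, Control+SAMC replicate 1 and HFD replicates 2 and 3, the fibrinogen transcript Fga was low. It was at 3378 to 3822 CPM (counts scaled to the library total and edgeR's TMM factor), against 8221 to 18520 in the other 8. HFD+SAMC replicate 3 held skeletal muscle transcripts (Acta1 at 439.7 CPM, at most 0.135 in the others). The RPKM of 1 of the 40154 genes, RGD1562465, implies another gene length in the Control and HFD+SAMC libraries than in the Control+SAMC and HFD libraries, which are called library sets here. No label names a batch, and whether the sets were handled separately was not tested. A difference in handling could not be told apart from a comparison between the sets. HFD+SAMC against Control and HFD against Control+SAMC lie within a set and the effects averaged over diet or SAMC are balanced over the sets. In whole liver, fewer cells of a type and less RNA per cell cannot be told apart.

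Slco1a1, Slco1a4 and Slco1b2 lie in 1 cluster on chromosome 4. In the table's coordinates, whose build is not named, Slco1b2 spans 175814118 to 175881775 on the plus strand, Slco1a4 spans 175969549 to 176026227 and Slco1a1 spans 176158174 to 176231331, both on the minus strand. The 250 bases upstream of the annotated start, from RefSeq on GRCr8, are shown for Slco1a1 (chr4:176681993-176682242, minus strand) and Slco1a4 (chr4:176495847-176496096, minus strand) because they are the most alike pair among the 7. Capitals mark the bases that are identical in a global alignment of the pair.
Slco1a1: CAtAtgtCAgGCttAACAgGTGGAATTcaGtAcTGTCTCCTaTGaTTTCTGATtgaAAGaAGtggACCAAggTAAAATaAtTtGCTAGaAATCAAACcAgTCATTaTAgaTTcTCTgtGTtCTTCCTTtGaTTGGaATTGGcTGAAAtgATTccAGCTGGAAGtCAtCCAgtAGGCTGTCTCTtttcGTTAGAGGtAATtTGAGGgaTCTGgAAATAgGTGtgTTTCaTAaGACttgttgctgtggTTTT
Slco1a4: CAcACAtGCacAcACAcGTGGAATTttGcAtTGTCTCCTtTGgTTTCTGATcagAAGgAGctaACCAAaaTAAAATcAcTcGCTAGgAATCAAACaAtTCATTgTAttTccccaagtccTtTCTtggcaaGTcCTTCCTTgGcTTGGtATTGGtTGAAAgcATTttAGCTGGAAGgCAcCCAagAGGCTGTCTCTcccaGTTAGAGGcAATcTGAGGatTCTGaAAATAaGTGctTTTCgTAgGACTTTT
In this alignment 176 bases were identical, which is 70.4% of the window, whereas the other 20 pairs of the 7 windows reached 38.8% to 54.0%. Each transcript sequence also has close relatives in this cluster, and reads shared between them may be split or lost in counting, so the counts of Slco1a1 and Slco1a4 carry that uncertainty.

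The window of Slco1b2 (chr4:176282334-176282583, plus strand) is shown because it held 2 of the 3 motif matches found in the 7 windows. Capitals mark the matches.
Slco1b2: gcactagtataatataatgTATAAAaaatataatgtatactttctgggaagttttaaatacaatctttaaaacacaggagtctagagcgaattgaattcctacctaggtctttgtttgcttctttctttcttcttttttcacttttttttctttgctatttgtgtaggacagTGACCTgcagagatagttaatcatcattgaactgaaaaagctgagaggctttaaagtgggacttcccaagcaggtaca
Reading from the start upstream, these are the nuclear receptor core AGGTCA on the minus strand at bases 73 to 78, where the strand shown reads TGACCT, and the TATA box letters TATAAA at bases 226 to 231. The third match, a TATAAA 67 to 72 bases before the start, was in Slco2a1. Both strands were searched, and no motif overlapped another. Of 27457 rat promoter windows of the same length, 13.7% held AGGTCA (1 of the 7 transporters) and 13.1% held TATAAA (2 of 7). The antioxidant element core TGACNNNGC was in 10.2% of all windows and in 0 of the 7. G and C made up 33.2% of the Slco1b2 window, 38.4% for Slco1a1, 42.4% for Slco1a4, 52.0% for Slc22a7, 56.0% for Slco2b1, 64.4% for Slco2a1 and 74.4% for Slc22a5. A match describes the letters only.

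Per gene length, Slco1b2 was the most abundant of the 7 transcripts, with a mean over the 12 libraries of 214.6 RPKM (reads scaled to gene length and library total, range 171.1 to 344.4). It stood above the next, Slc22a7, in 12 of 12 libraries. Slc22a7 (mean 65.99 RPKM), Slco1a1 (53.75 RPKM) and Slco2a1 (51.58 RPKM) lay close together: Slc22a7 was above Slco1a1 in 9 libraries, and Slco1a1 was above Slco2a1 in only 5. Slco2a1 exceeded Slco2b1 (34.66 RPKM) in 11 of 12. Slco2b1 was above Slco1a4 (28.83 RPKM) in 8, and Slco1a4 was above Slc22a5 (21.39 RPKM) in 8, so these neighbours are not ordered beyond their spread. The plot of RPKM by gene shows how wide each range is, from 30.71 to 39.97 RPKM for Slco2b1 to 9.104 to 71.24 RPKM for Slco1a4.

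**Figure D1:**
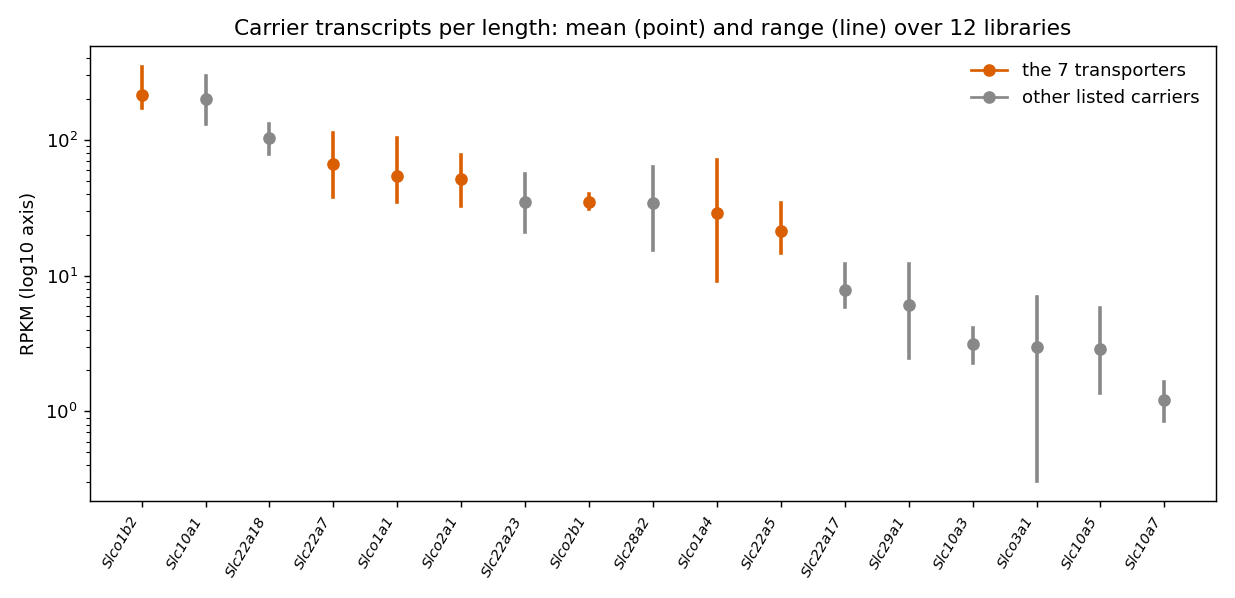
Mean RPKM (points, log10 axis) and range over the 12 libraries (lines) of the 17 carriers with a mean of at least 1 RPKM, in order of their mean, with the 7 transporters in orange and other listed carriers in grey. Slco1b2 has the highest mean, 214.6 RPKM, and among the 7 transporters Slco1a4 has the widest range on this axis, 9.104 to 71.24 RPKM.

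Among 51 uptake and exchange carriers of the Slco, Slc22 and related families described here, 17 had a mean of at least 1 RPKM and 5 had no count in any library. All 7 transporters were among the first 11 by mean RPKM. By this mean only Slco1b2 lay above Slc10a1, the sodium-coupled bile acid carrier NTCP (199.9 RPKM).

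The transcripts also differed in how much the libraries of a group spread. The biological coefficient of variation that edgeR estimated was 0.1417 for Slco2b1, 0.1782 for Slc22a7 and 0.2059 for Slc22a5, against 0.299 common to all tested genes. Slco1b2 (0.2351), Slco2a1 (0.2524) and Slco1a1 (0.2655) lay in between. For Slco1a4 it was 0.4452, and its highest library was 6.896 times its lowest. Values in the following paragraphs are CPM scaled by edgeR's TMM factors, in the order of the replicate numbers.

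Slco1b2 encodes Oatp1b2, the rodent counterpart of the human hepatocyte carriers that take up bilirubin conjugates, bile acids and statins. It was at 624.1, 934.1 and 680.5 CPM in Control and at 685.9, 636.6 and 633.2 CPM in Control+SAMC. In HFD it was at 1058, 535.1 and 653.6 CPM, and in HFD+SAMC at 789.7, 506.7 and 575.2 CPM. The ranges of all 4 groups overlapped, and the highest and the second lowest library (1058 and 535.1 CPM) belonged to the same group, HFD. Group means were 746.2 ± 165.1 CPM (SD, n = 3) in Control, 651.9 ± 29.47 in Control+SAMC, 748.9 ± 274.2 in HFD and 623.9 ± 147.6 in HFD+SAMC.

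Slco1a1 encodes Oatp1a1, which takes up bile acids, steroid conjugates and the dye sulfobromophthalein. It was at 96.88, 214.7 and 107.4 CPM in Control and at 114.1, 134.9 and 146.9 CPM in Control+SAMC. HFD libraries held 182.6, 234.9 and 122.1 CPM, and HFD+SAMC libraries 135.5, 109.8 and 132.5 CPM. The groups overlapped throughout. The 3 highest libraries, Control replicate 2 and HFD replicates 2 and 3, are 3 of the 4 with low Fga. For each of the 7 transporters the highest library was 1 of these 4, which also held the lowest library of Slco1a4 and of Slco2b1. The part of the Fga difference in the transporter values was not tested.

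Slco1a4 encodes Oatp1a4, a carrier of cardiac glycosides and bile acids and a known target of PXR. Its values were 44.57, 150.6 and 72.47 CPM in Control and 33.51, 148 and 67.45 CPM in Control+SAMC. They were 151.4, 231.1 and 152.7 CPM in HFD and 79.5, 68.85 and 103.2 CPM in HFD+SAMC. All 3 HFD libraries lay above all 9 others, though by little: the lowest was at 151.4 CPM and the highest Control library at 150.6 CPM. The 4 low-Fga libraries included the highest and the lowest value of the 12. Markers of Kupffer cells, the liver's macrophages, also stood high in HFD: their summed CPM was 607.2 to 1040 in Control, 745.2 to 960.5 in Control+SAMC, 986.2 to 1242 in HFD and 850 to 1031 in HFD+SAMC. In HFD against Control 12 of these 13 markers had positive differences (median of all tested genes −0.005). Of these, 6 had an unadjusted p under 0.05, against 10.7% of all tested genes. In HFD+SAMC against HFD 12 of 13 had negative differences (median of all tested genes 0.003). Of these, 2 had an unadjusted p under 0.05, against 10.6% of all tested genes. In edgeR 0 of the 13 passed after adjustment, and their part in the Slco1a4 and Slco1a1 values was not tested. Mean levels were 89.22 ± 54.97 CPM (SD, n = 3) in Control, 82.97 ± 58.79 in Control+SAMC, 178.4 ± 45.62 in HFD and 83.85 ± 17.59 in HFD+SAMC.

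Slco2b1 encodes Oatp2b1, a carrier of sulfated steroids that is found in many tissues. It was at 198.8, 245 and 219.8 CPM in Control, 181.6, 194.1 and 209.5 CPM in Control+SAMC, 197.1, 171.1 and 180.2 CPM in HFD and 212.6, 200.2 and 189.9 CPM in HFD+SAMC. The Control libraries lay above the HFD libraries with a narrow gap, 198.8 against 197.1 CPM. On the deposited RPKM scale, which has no TMM scaling, the same groups overlapped, at 33.41 to 34.43 RPKM in Control and 32.49 to 35.87 RPKM in HFD.

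Slco2a1 encodes the prostaglandin transporter, which clears prostaglandins from the blood and is known from endothelial cells as well as epithelia. Its values were 221.1, 419.5 and 259.3 CPM in Control, 285.5, 258.6 and 190.7 CPM in Control+SAMC, 388.5, 297.5 and 211.7 CPM in HFD and 407.3, 280.8 and 306.2 CPM in HFD+SAMC. Every pair of groups overlapped. The summed CPM of 14 sinusoidal endothelial markers was 631.5 to 772.3 in Control, 553.4 to 705.4 in Control+SAMC, 602.1 to 621.9 in HFD and 583.1 to 636.5 in HFD+SAMC, and its part in the Slco2a1 values was not tested.

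Slc22a7 encodes Oat2, a sinusoidal carrier of small organic anions such as orotic acid and nucleotides. It was at 125.4, 115.2 and 90.1 CPM in Control, and at 79.33, 67.4 and 80.57 CPM in Control+SAMC. HFD libraries held 128.3, 154.7 and 102.8 CPM, and HFD+SAMC libraries 129, 106.6 and 96.99 CPM. By TMM-scaled CPM all 3 Control+SAMC libraries lay below the 9 others. On the deposited RPKM scale, which has no TMM scaling, they overlapped Control, at 37.51 to 50.27 RPKM against 49.64 to 74.15 RPKM. The mean was 75.76 ± 7.274 CPM (SD, n = 3) in Control+SAMC, against 110.3 ± 18.19 in Control, 128.6 ± 25.98 in HFD and 110.8 ± 16.41 in HFD+SAMC.

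Slc22a5 encodes Octn2, the sodium-coupled carrier that brings carnitine, the shuttle for long-chain fatty acids, into cells. Its values were 77.58, 66.8 and 77.45 CPM in Control, 47.17, 48.37 and 46.84 CPM in Control+SAMC, 78.48, 87.87 and 55.94 CPM in HFD and 85.22, 50.48 and 46.84 CPM in HFD+SAMC. The 3 Control+SAMC libraries were nearly equal (47.46 ± 0.8034 CPM, SD, n = 3) and lay below all Control and HFD libraries, but overlapped HFD+SAMC. Within HFD+SAMC 1 library (85.22 CPM) lay within the range of the HFD group and the other two lay below it, 1 of them level with the lowest Control+SAMC library and 1 just above the highest.

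**Figure D2:**
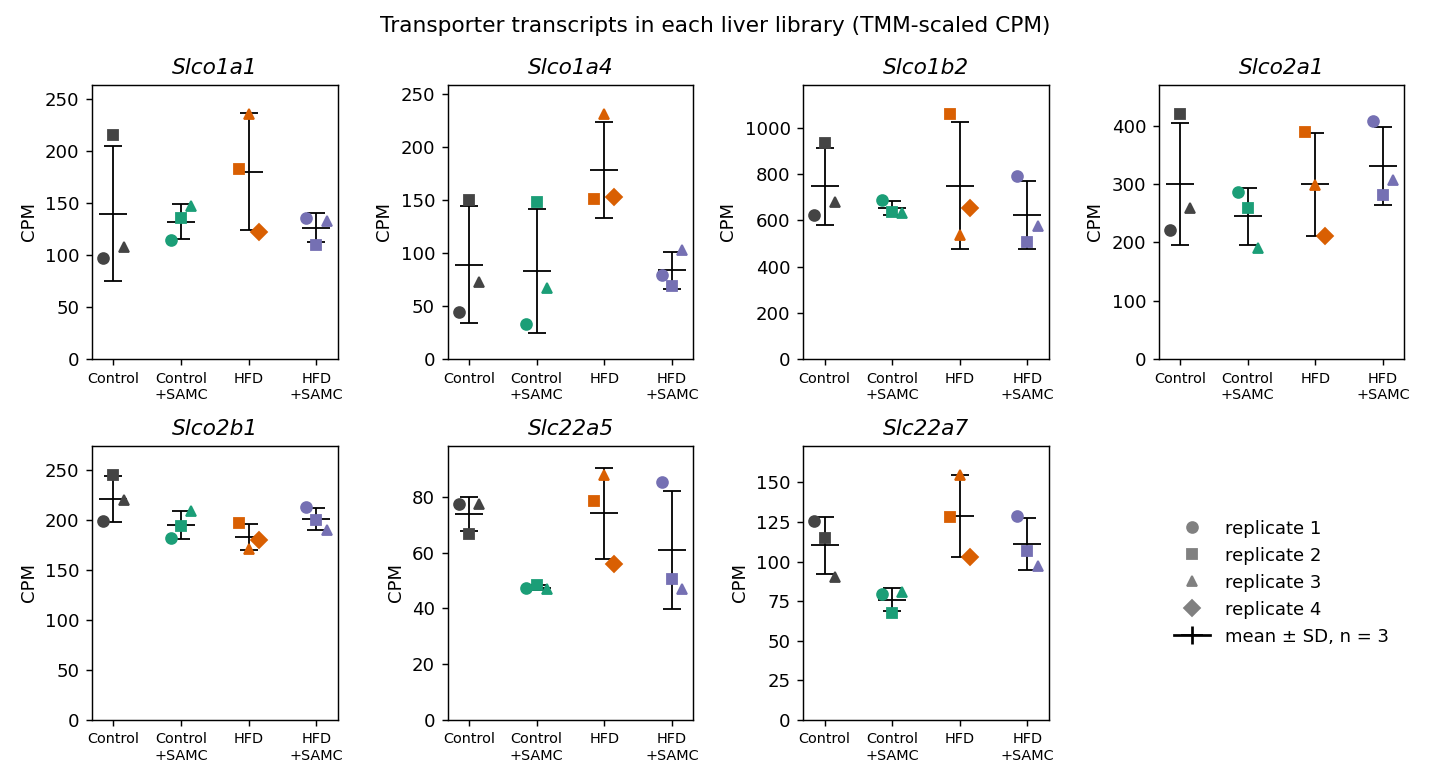
TMM-scaled CPM of each transporter by group, 1 point per library (shape gives the replicate number) with the mean and SD (n = 3), each vertical axis starting at 0. Slco1a4 is highest in the 3 HFD libraries (151.4 to 231.1 CPM), and Slc22a7 is lowest in the 3 Control+SAMC libraries (67.4 to 80.57 CPM).

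The first question was whether the high fat diet alone changed the transporters. In HFD against Control, 0 of the 7 passed at an adjusted p of 0.05 in edgeR's quasi-likelihood test (Benjamini-Hochberg adjustment), where 0.145% of all tested genes passed. At an unadjusted p under 0.05 it was 1 of 7 (10.7% of all tested genes), and DESeq2 called 0 of 7, with 2 at an unadjusted p under 0.05. The groups did not overlap for Slco1a4 (higher in HFD, as for 8.27% of tested genes) and Slco2b1 (lower, as for 6.44%). Slco1a4 was 1.00 ± 0.53 higher in HFD on the log2 scale (SE, 95% interval −0.19 to 2.19, adjusted p 0.544), a fold of 2. Leaving out 1 library at a time moved this difference between 0.67 and 1.61, the latter without Control replicate 2, with adjusted p values of 0.285 to 0.86. Slco2b1 differed by −0.28 ± 0.13 (adjusted p 0.467), and by 0.02 when libraries were scaled by total count alone. Slco1a1 differed by 0.37 ± 0.30 and Slc22a7 by 0.22 ± 0.18. Slco1b2, Slco2a1 and Slc22a5 had differences within 0.01 of 0, but the intervals of Slco1b2 (−0.55 to 0.56), Slco2a1 (−0.61 to 0.60) and Slc22a5 (−0.47 to 0.47) leave room for changes in either direction.

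The second question was what SAMC did on the high fat diet. In HFD+SAMC against HFD, 0 of the 7 passed edgeR's test, where 0.0503% of all tested genes passed; 0 of 7 had an unadjusted p under 0.05 (10.6% of all), and DESeq2 called 0, with 1 at an unadjusted p under 0.05. This comparison shares its HFD libraries with the previous one. Slco1a4 was the only transporter whose groups did not overlap, being lower with SAMC, as were 9.41% of tested genes. Its difference was −1.09 ± 0.54 on the log2 scale (SE, 95% interval −2.28 to 0.10, adjusted p 0.508). Slco1a1 differed by −0.51 ± 0.30, and Slco1b2, Slc22a5 and Slc22a7 by −0.26 ± 0.26, −0.28 ± 0.22 and −0.21 ± 0.18. Slco2a1 (0.15 ± 0.28) and Slco2b1 (0.14 ± 0.13) had positive differences.

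On the normal diet, Control+SAMC against Control, the 2 Slc22 carriers stood lowest. Again 0 of 7 passed edgeR's test (0.119% of all tested genes) and DESeq2 called 0, while 2 of 7 had an unadjusted p under 0.05 by either tool (9.78% of all by edgeR). Those were Slc22a5, at −0.64 ± 0.22 on the log2 scale (95% interval −1.11 to −0.17, adjusted p 0.363), and Slc22a7, at −0.54 ± 0.18 (−0.93 to −0.15, adjusted p 0.347). By TMM-scaled CPM they were also the transporters whose groups did not overlap, lower with SAMC, as were 6.51% of tested genes. By deposited RPKM the groups of Slc22a7 overlapped. Without any 1 library these differences stayed within −0.71 to −0.61 for Slc22a5 and −0.67 to −0.44 for Slc22a7. The other 5 differed by −0.29 to −0.08, so all 7 had negative differences (median −0.20), while 48.5% of all tested genes had positive ones. Scaled by total count alone, 2 of the 7, Slco1a1 and Slco1a4, had positive differences.

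With SAMC given on both diets, HFD+SAMC against Control+SAMC, 0 of 7 passed edgeR's test (0.0628% of all tested genes), DESeq2 called 0, and 1 of 7 had an unadjusted p under 0.05 by either tool (10.9% of all by edgeR). That was Slc22a7, higher in HFD+SAMC by 0.55 ± 0.18 on the log2 scale (adjusted p 0.297) and without overlap, as were 9.27% of tested genes. Slco2a1 differed by 0.44 ± 0.28 and Slc22a5 by 0.36 ± 0.22, and the remaining 4 by −0.07 to 0.04.

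Averaging the 2 diet differences, which balances the library sets, again left 0 of 7 past the threshold in edgeR, where 0.421% of all tested genes passed, and 0 in DESeq2. Slc22a7 alone had an unadjusted p under 0.05 by either tool (13.6% of all by edgeR), being 0.39 ± 0.13 higher on the high fat diet (95% interval 0.11 to 0.66, adjusted p 0.209). Scaled by total count, which shifts the median of all genes by 0.22 here, the difference of Slc22a7 was 0.61 with an adjusted p of 0.0496. Under that scaling edgeR called 573 genes, 529 of them higher, against 67 with TMM. Slco1a4 was 0.51 ± 0.38 higher.

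Averaged over diet, SAMC went with negative differences in all 7 transporters (49.2% of all tested genes had positive ones), or in 5 of 7 when scaled by total count, in which case Slco2a1 and Slco2b1 lay at 0.00 and 0.04. Still 0 of 7 passed in edgeR (0.22% of all tested genes) or DESeq2, and 2 had an unadjusted p under 0.05 by either tool (12.4% of all by edgeR). Slc22a5 was at −0.46 ± 0.15 (95% interval −0.80 to −0.13, adjusted p 0.249) and Slc22a7 at −0.38 ± 0.13 (−0.65 to −0.10, adjusted p 0.249). Slco1a4 was at −0.60 ± 0.38, Slco1a1 at −0.30 ± 0.21 and Slco1b2 at −0.23 ± 0.18. Without HFD+SAMC replicate 1, its high library, Slc22a5 was at −0.62 with an adjusted p of 0.0832.

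The remaining comparisons lie within a library set. For HFD+SAMC against Control, 0 of 7 passed in edgeR (0.176% of all tested genes) or DESeq2, 0 had an unadjusted p under 0.05 by either tool (12.6% of all by edgeR) and all 7 overlapped, whereas 19.7% of tested genes did not. Slc22a7 differed there by 0.01 ± 0.18 (95% interval −0.38 to 0.40). For HFD against Control+SAMC, 0 of 7 passed in edgeR, where 0.364% of all tested genes passed. DESeq2 called 1, Slc22a7 (adjusted p 0.0125), among 536 genes that it called in this comparison, against 58 in edgeR. At an unadjusted p under 0.05 there were 2 of 7 in edgeR (13% of all) and 3 in DESeq2. Slc22a7 was 69.7% higher in HFD, 0.76 ± 0.18 on the log2 scale (95% interval 0.37 to 1.15, adjusted p 0.1), Slc22a5 was 0.64 ± 0.22 higher (adjusted p 0.233) and Slco1a4 1.10 ± 0.54 higher (adjusted p 0.422). Without Control+SAMC replicate 2 the difference of Slco1a4 was 1.83, and without Control+SAMC replicate 1 it was 0.73. These 3 did not overlap, as was the case for 8.8% of tested genes in that direction.

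Whether SAMC acted differently on the 2 diets was tested as an interaction, which is also the contrast between the 2 library sets, so these cannot be told apart. In that test 0 of 7 passed in edgeR, where 0.145% of all tested genes passed, 0 had an unadjusted p under 0.05 (7.41% of all) and DESeq2 gave 0 on both counts. Slco1a4 had the widest estimate, −0.98 ± 0.75 on the log2 scale (95% interval −2.65 to 0.68), so its differences on the high fat diet (−1.09) and on the normal diet (−0.10) were not shown to differ. It was −1.60 without Control replicate 2 and −0.26 without Control+SAMC replicate 2. The plot of log2 differences shows the intervals of all 7 transporters for the diet and SAMC comparisons and their averages.

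**Figure D3:**
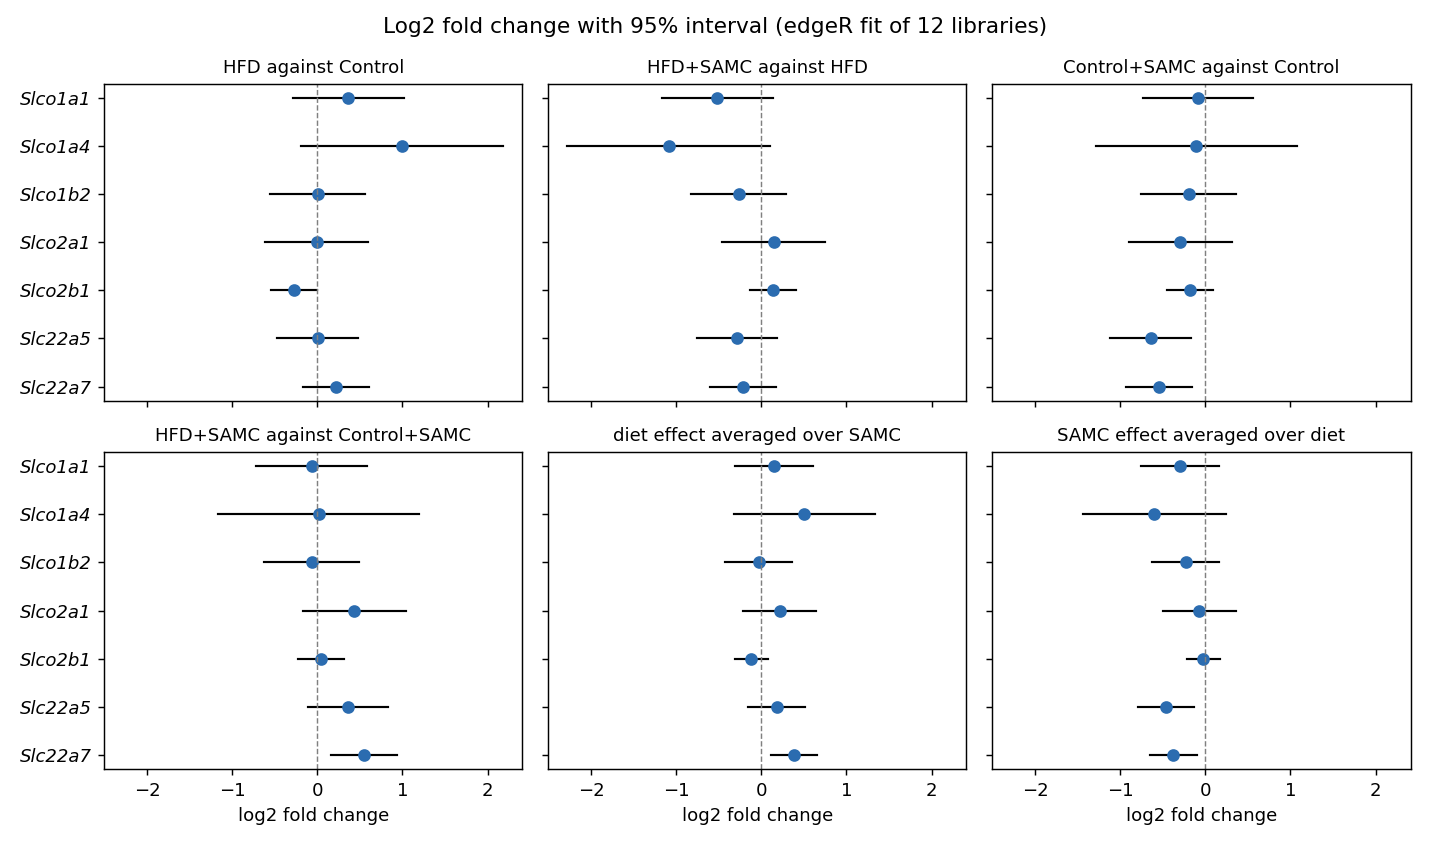
Log2 fold changes (points) of the 7 transporters with 95% intervals (lines) from the edgeR fit of 12 libraries, in 6 panels for the 4 comparisons of diet or SAMC and the 2 averaged effects, with a dashed line at 0. Intervals of Slc22a5 and Slc22a7 lie below 0 in Control+SAMC against Control (−1.11 to −0.17 and −0.93 to −0.15), and Slco1a4 has the widest interval in each panel.

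Across the 12 libraries Slc22a5 and Slc22a7 had the highest correlation of the 21 pairs by log2 CPM, though not by deviations from the group means. For Slc22a5 and Slc22a7, log2 CPM had a Pearson r of 0.791 and a Spearman rho of 0.846. It was 0.682 without the 2 libraries farthest from the median and 0.665 for deviations from the group means. Slco1a1 and Slco1a4 followed with an r of 0.753 and a rho of 0.643, 0.613 without 2 libraries and 0.679 for the deviations; their counts may share reads. Slco1b2 and Slco2a1 had an r of 0.604, which was 0.196 without 2 libraries and 0.753 for the deviations, the highest of the 21 pairs on that measure. Slco1b2 and Slco2b1 were next on it at 0.717, with an r of 0.501. These pairs are descriptions, as the libraries share groups, library sets and scaling.

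**Figure D4:**
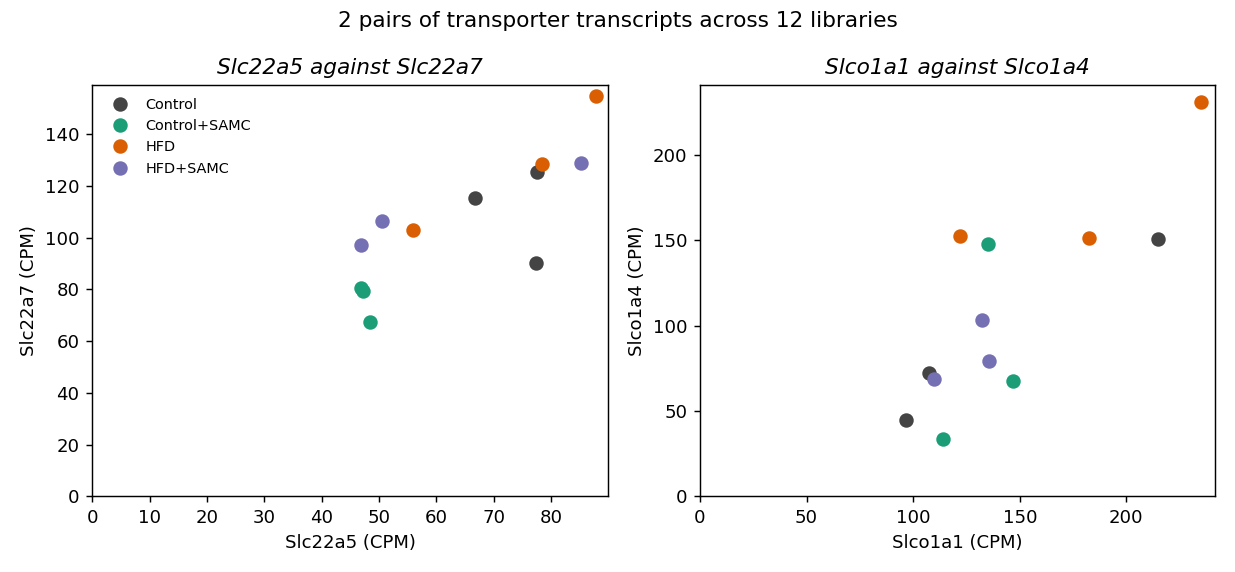
CPM of Slc22a5 against Slc22a7 (left) and of Slco1a1 against Slco1a4 (right), 1 point per library, coloured by group. The 3 Control+SAMC libraries sit at the low end of the left panel, at 46.84 to 48.37 CPM for Slc22a5 and 67.4 to 80.57 CPM for Slc22a7.

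Among 10895 genes whose mean log2 CPM reached 1, those most like each transporter over the 12 libraries, by Pearson r of log2 CPM, were as follows. Thnsl2 (0.953) and LOC103691422 (0.939) were most like Slco2a1, and Qprt (0.91) and Mrvi1 (0.887) most like Slc22a7. For Slc22a5 they were Mlycd, which encodes malonyl-CoA decarboxylase (0.906, and 0.907 without the 2 libraries farthest from the median), and Siah2 (0.884). Slco1a4 was closest to Ehbp1l1 (0.904) and Unc13d (0.903), Slco1b2 to Azgp1 (0.901) and Zscan26 (0.899), Slco2b1 to Lrpap1 (0.894) and Evi5 (0.839), and Slco1a1 to Plek (0.892) and Slc15a3 (0.858). These are the highest of many values, so their closeness comes in part from picking them. Without the 2 libraries farthest from the transporter's median, r fell to 0.646 for Evi5, 0.699 for Azgp1 and 0.71 for Zscan26. It was then 0.733 for Plek, 0.752 for Lrpap1, 0.773 for Mrvi1, 0.789 for Ehbp1l1 and 0.822 for Qprt. The rest were at 0.827 for Slc15a3, 0.863 for Siah2, 0.87 for Unc13d, 0.894 for LOC103691422 and 0.927 for Thnsl2.

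No carrier of the wider families passed the test either. Of the other Slco carriers 4 of 10 were tested, of the other Slc22 carriers 9 of 18 and of other hepatic uptake and exchange carriers 9 of 16, and 0 of them passed edgeR's test in any of the 9 comparisons. At an unadjusted p under 0.05, for SAMC averaged over diet, there were 4 higher and 1 lower among the 9 Slc22 carriers, 0 among the 4 Slco carriers and 1 higher among the 9 hepatic carriers, against 12.4% of all tested genes in both directions. Slc22a12, the urate carrier Urat1, was scarce, at 0 to 0.2096 CPM in Control and 0.01871 to 0.07677 CPM in HFD, and at 0.5184 to 4.371 CPM in Control+SAMC and 0.4178 to 3.705 CPM in HFD+SAMC. Its SAMC difference was 4.95 ± 0.85 on the log2 scale (edgeR's adjusted p 0.0504). Slc22a12 had 11, 0 and 1 counts in Control and 4, 5 and 1 in HFD. Slc22a8 likewise had 1, 2 and 0 counts in Control and 1, 3 and 5 in HFD. Both passed the low-count filter through SAMC libraries, where they were higher. The count of higher Slc22 carriers and the Slc22a12 difference are therefore no support for an effect of SAMC. Slc22a23, an orphan carrier, was at 268.2 to 344 CPM in Control and 166.1 to 246.3 CPM in Control+SAMC. It was at 213.1 to 330.2 CPM in HFD, which overlapped Control+SAMC, and at 134.1 to 197.4 CPM in HFD+SAMC. Its SAMC difference was −0.74 ± 0.16 on the log2 scale (edgeR's adjusted p 0.0805).

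ABC pumps export what the uptake carriers bring in. Of 11 tested, 1 passed, Abcc3, the basolateral pump Mrp3. It had a mean of 4.24 CPM in Control, 36.1 in Control+SAMC, 13.6 in HFD and 41.3 in HFD+SAMC. In edgeR's quasi-likelihood test it rose with SAMC averaged over diet by 2.35 ± 0.27 on the log2 scale (adjusted p 0.00725), where 0.22% of all tested genes passed, and in Control+SAMC against Control by 3.09 ± 0.40 (adjusted p 0.0194), where 0.119% passed. Abcc3 also passed, higher, in HFD+SAMC against Control, which lies within a library set and where 0.176% of all tested genes passed.

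Among 23 transcription factors and scaffold genes known to act on transporters, 1 passed in the averaged diet effect (0.421% of all tested genes), Nr1i3, which encodes CAR. It was at 4.18 CPM in Control, 5.53 in Control+SAMC, 17.96 in HFD and 21.96 in HFD+SAMC, and rose on the high fat diet by 2.05 ± 0.34 (edgeR's adjusted p 0.0314). Nr1i2, which encodes PXR, was at 148.1 ± 34.57 CPM (SD, n = 3) in Control, 142.4 ± 31.71 in Control+SAMC, 154.9 ± 28.45 in HFD and 137.4 ± 30.16 in HFD+SAMC. Of 13 tested target genes of CAR and PXR, 4 rose in the averaged diet effect and 0 fell, where 0.421% of all tested genes passed: Cyp2b1, Cyp2b2, Cyp3a18 and Cyp3a62, drug-metabolizing cytochromes P450. Cyp2b1 was at a mean of 0.511 CPM in Control, 5.40 in Control+SAMC, 15.3 in HFD and 56.1 in HFD+SAMC, a diet difference of 4.14 ± 0.32 (edgeR's adjusted p 0.000763). With SAMC averaged over diet, 2 of the 13 rose and 0 fell, where 0.22% of all tested genes passed. In Control+SAMC against Control 2 of the 13 also rose and 0 fell, where 0.119% passed. Slco1a4, also a known PXR target, had a diet difference of 0.51 ± 0.38 (adjusted p 0.603).

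Of 11 tested genes of the carnitine system, to which Slc22a5 supplies substrate, and of 12 for prostaglandin handling, the partners of Slco2a1, 0 passed edgeR's test in any of the 9 comparisons. In HFD against Control, 1 carnitine gene had an unadjusted p under 0.05 in each direction, and 2 prostaglandin genes were higher, against 10.7% of all tested genes. Crot, the peroxisomal carnitine octanoyltransferase, was at 45.11 to 61.49 CPM in Control and 117.3 to 253.8 CPM in HFD, a difference of 1.76 ± 0.48 (adjusted p 0.227). Ptger3, a prostaglandin E receptor, was at 5.787 to 16.54 CPM in Control and 19.91 to 62.48 CPM in HFD, a difference of 2.13 on the log2 scale (adjusted p 0.185). Of the 14 sinusoidal endothelial markers 1 passed, Clec4g, which fell by 0.74 on the log2 scale with SAMC averaged over diet (SE 0.12, edgeR's adjusted p 0.0297), where 0.22% of all tested genes passed. The 14 summed hepatocyte markers were at 197400 to 377400 CPM in Control, 166400 to 255600 in Control+SAMC, 135400 to 184500 in HFD and 157500 to 192400 in HFD+SAMC. Albumin was the largest part of this sum, at 83380 to 273700 CPM in Control. In HFD against Control 13 of the 14 had negative differences (median of all tested genes −0.005). Of these, 4 had an unadjusted p under 0.05 in edgeR (10.7% of all tested genes). In HFD+SAMC against HFD 8 had positive and 6 negative differences. In HFD+SAMC against Control all 14 were negative (median of all tested genes −0.002), 5 of them at an unadjusted p under 0.05 (12.6% of all tested genes). After adjustment 0 of the 14 passed edgeR's test, and their part in the transporter values was not tested.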

How the data were processed

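Per the labels' protocols, liver RNA was depleted of ribosomal RNA, made into libraries with a NEBNext Ultra kit and sequenced as paired reads. Reads were trimmed with Trimmomatic 0.36, per the submitters' processing notes. The authors used HISAT2 to align them and HTSeq to obtain the deposited counts, per the labels' protocols. The deposited RPKM values equal the counts divided by gene length and library total; 1 gene, RGD1562465, had an implied length of 3377 bp in 6 libraries and 4432 bp in the other 6, which is the only ground for the 2 library sets. Build, annotation release and strand setting: not given in the sources used here. Therefore overlapping or antisense genes may share reads.

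Here, counts of all 12 libraries were fitted in edgeR 4.0.16 (R 4.3.3, limma 3.58.1) with TMM scaling, its default low-count filter and the robust quasi-likelihood test, which left 8 residual degrees of freedom. P-values are two-sided and adjusted by Benjamini-Hochberg over 15916 tested genes, which hold 99.96% of the counts. Shares of all tested genes are those of edgeR in this fit, also where they stand beside DESeq2 counts. Log2 differences are those of this fit, and CPM means TMM-scaled counts scaled to a library total of 1e+06. SE and 95% intervals come from the same test. Totals of 45680738 to 61937544 counts make counting error small beside the spread between libraries.

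The transporters and lists were chosen with earlier results of these data known. All 7 transporters are described. From each other list, members past 0.05 or, if none, at most 3 with the smallest p could be named, and the 2 genes with the highest r for each transporter. Slc10a1 and Nr1i2 were named outside that rule after their values were seen. Alternatives were relative log expression factors, no filter, DESeq2 1.42.0, only the groups compared, a replicate block, each library left out and, added after seeing the data, scaling by total count. Some genes and motifs are not reported here. The test was tried on simulated counts. Promoter windows came from RefSeq (GRCr8) and were aligned with Biopython 1.88.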

Additional observations from a re-analysis of the deposited data

How the results depend on the processing

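Of 1113 recomputed log2 differences of the 7 transporters, 1040 kept their direction and side of the threshold, 71 changed sign and 2 passed the threshold where the reported value did not. Sign changes came only where the reported difference was at most 0.292 in size. The count of transporters called stayed at 0 of 7 in all 9 comparisons under relative log expression factors, without a filter, with only the groups compared and without each library in turn (0 to 0). It became 1 for the averaged diet effect under scaling by total count (Slc22a7 at 0.605, adjusted p 0.0496) and 1 for HFD against Control+SAMC in DESeq2 (Slc22a7 at 0.757, adjusted p 0.0125). The cause was not tested. Over all genes DESeq2 called more in each comparison, in the order of the report 293, 228, 199, 252, 519, 404, 431, 536 and 121, against 23, 8, 19, 10, 67, 35, 28, 58 and 23 in edgeR. Without a filter edgeR called 19 in HFD+SAMC against HFD, 21 in HFD+SAMC against Control+SAMC, 67 in the averaged SAMC effect and 61 in HFD+SAMC against Control. Scaling by total count gave 136 in HFD against Control, 5 in HFD+SAMC against Control+SAMC, 573 in the averaged diet effect, 185 in HFD+SAMC against Control and 127 in HFD against Control+SAMC. Without 1 library the 9 counts ran over 4 to 53, 1 to 27, 3 to 23, 1 to 45, 30 to 130, 13 to 68, 7 to 53, 5 to 140 and 7 to 19.

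Replicate numbers gave no sign of pairing the libraries. Of 15 same-numbered pairs, 2 had a correlation of deviations over 0.1 (median 0.016), against 9 of 39 other pairs (median −0.005). With 3 libraries per group these values cannot exclude a pairing. With the replicate number as a block, 0 transporters were called in each comparison. HFD replicate 4 is the only library with its number, so the block fits it exactly. HFD then rests on replicates 2 and 3, both with low Fga. The changes below therefore include the loss of that library and are not those of pairing alone. The replicate block turned Slco2a1 to 0.23 in HFD against Control and −0.066 in HFD+SAMC against HFD, Slco1b2 to 0.012 in the averaged diet effect and Slco1a4 to 0.138 in HFD+SAMC against Control. All genes called went from 19 to 6 in Control+SAMC against Control, from 10 to 2 in HFD+SAMC against Control+SAMC, from 35 to 10 in the averaged SAMC effect and from 23 to 9 in the interaction.

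Scaling by total count moved the median of all tested genes by 0.293 in HFD against Control, where it turned Slco2a1 to 0.323 and Slco2b1 to 0.024. In Control+SAMC against Control (median 0.131) Slco1a1 turned to 0.087 and Slco1a4 to 0.043. In HFD+SAMC against Control+SAMC (0.138) Slco1a1 turned to 0.076 and Slco1b2 to 0.074. In the averaged diet effect (0.215) Slco1b2 turned to 0.188 and Slco2b1 to 0.104, and in the averaged SAMC effect (0.055) Slco2a1 turned to 0.001 and Slco2b1 to 0.039. In HFD+SAMC against Control (0.271) Slco1a1 turned to 0.163, Slco1a4 to 0.236, Slco1b2 to 0.034 and Slco2b1 to 0.143, and in HFD against Control+SAMC (0.161) Slco2b1 turned to 0.065. DESeq2 gave 0 for Slco1b2 and −0.002 for Slc22a5 in HFD against Control. Slc22a7 was −0.003 in HFD+SAMC against Control with DESeq2 and with relative log expression factors. With only the groups compared, Slco1a4 was −0.001 in HFD+SAMC against Control+SAMC.

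Leaving out 1 library at a time gave ranges that crossed 0 as follows. In HFD against Control they were −0.329 to 0.198 for Slco1b2, −0.237 to 0.316 for Slco2a1 and −0.139 to 0.168 for Slc22a5. In HFD+SAMC against HFD they were −0.468 to 0.07 for Slco1b2 and −0.048 to 0.38 for Slco2a1. In Control+SAMC against Control they were −0.294 to 0.368 for Slco1a1, −0.833 to 0.506 for Slco1a4 and −0.475 to 0.029 for Slco2a1. In HFD+SAMC against Control+SAMC they were −0.161 to 0.023 for Slco1a1, −0.36 to 0.731 for Slco1a4, −0.268 to 0.067 for Slco1b2 and −0.006 to 0.098 for Slco2b1. In the averaged diet effect Slco1b2 ran from −0.196 to 0.067, and in the averaged SAMC effect Slco2a1 ran from −0.171 to 0.085 and Slco2b1 from −0.064 to 0.014. In HFD+SAMC against Control they were −0.367 to 0.294 for Slco1a1, −0.424 to 0.511 for Slco1a4, −0.045 to 0.458 for Slco2a1 and −0.13 to 0.1 for Slc22a7. Slco1b2 ran from −0.133 to 0.392 in HFD against Control+SAMC and from −0.271 to 0.266 in the interaction.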
